A study of Mus musculus with 5 samples.

Results

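The unfolded protein response and the integrated stress response were followed through 10 genes in mouse gastric organoids: Ddit3, Ppp1r15a, Atf4, Trib3, Chac1, Asns, Hspa5, Herpud1, Xbp1 and Dnajb9. They were chosen for their place in these pathways, with earlier results of these data known. Each probe was assigned to a gene through the transcript accession that the scanner files give for it. They are 10 of 23779 genes named on the array and 10 of the 17583 genes tested. The 10 genes were read by 18 probes, all of them well above background on all 5 arrays. Organoids are cultures of epithelial cells grown as small hollow structures in a gel. The tumour organoids were recovered from subcutaneous tumours and lacked Trp53, the tumour suppressor p53, together with 1 further lesion. This was the hairpin shCdh1 #1 or shCdh1 #2 against the adhesion gene Cdh1 (1 array each), Apc580D (1 array) or Pik3caH1047R (1 array). The control was 1 array of organoids from Trp53flox/flox mice that carried the control vector pLKO.1 and shLuc, taken before inoculation, and every group was labelled as stomach of female mice and was grown in the same serum-free medium with no treatment. The 4 tumour arrays are not replicates of 1 genotype, the labels do not say whether the shCdh1 organoids came from separate animals, and p-values measure only the spread between these samples. Trp53 loss, the further lesion, growth as a tumour and, for Apc580D and Pik3caH1047R, the slide cannot be told apart in a comparison with the control. In bulk RNA, fewer cells of a type and less RNA per cell cannot be told apart either.

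Cells that accumulate unfolded protein in the endoplasmic reticulum (ER) signal through the membrane sensors PERK, IRE1 and ATF6. PERK and related kinases phosphorylate the initiation factor eIF2-alpha, which lowers general translation and favours translation of the transcription factor ATF4, while IRE1 splices the Xbp1 transcript into its active form and ATF6 is cut to release a transcription factor. The resulting programmes comprise ER chaperones, degradation of misfolded ER proteins, amino acid supply and, when stress lasts, the pro-apoptotic factor CHOP. Secretory epithelia of the stomach, chief cells above all, carry a large ER and depend on these pathways.

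Each level below is log2 of the processed signal minus that array's 75th percentile, so 0 means a signal equal to the percentile, and levels of different probes cannot be set against each other. Per array, 61.8% to 65.3% of the 59305 spots exceeded background, and none was saturated. The Cdh1 and Trp53 transcripts followed the labels, and the Apc580D and Pik3caH1047R lesions were not checked in the RNA. Cdh1 stood at 0.07 and 0.26 in the shCdh1 tumours, against 4.48 in Apc580D, 4.58 in Pik3caH1047R and 4.39 in the control, and Trp53 stood between -5.86 and -4.86 in the tumours, against 0.85 in the control. Of 8 gastric epithelial markers, 7 to 8 were well above background in the tumours and 8 in the control. The summed signal of the 6 chief cell markers, in multiples of the 75th percentile, was 3.99 to 17.0 in the tumours, against 85.0 in the control, and that of the 8 fibroblast markers was 0.104 to 0.268, against 0.0834 in the control, with Col3a1, Lum and Pdgfrb not well above background on any array. The 7 leukocyte markers summed to 16.01 to 21.0 in the tumours, against 11.7 in the control, a sum led by Cd68 (3.03 to 3.84, against 2.51). The median level of the set, -0.39 to -0.02 in the tumours, spanned the -0.25 of the control, and Lyz2 was not well above background on any array. The part of these cell types in the members' values was not tested.

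None of the 10 genes passed the limma test at an adjusted p of 0.05, either for the 4 tumours against the control or for shCdh1, Apc580D or Pik3caH1047R alone against the same control array. Across all genes 0.119% passed for the tumours (21 of 17583, 4 higher and 17 lower), and 0% for each genotype, where the fit has only 1 residual degree of freedom. At that unadjusted threshold 1 of the 10 members (Ddit3) and 13.3% of all genes were called for the tumours. For shCdh1 these were 2 of the 10 (Ddit3 and Ppp1r15a) and 9.74% of all genes (1712), for Apc580D none of the 10 and 9.02% (1586), and for Pik3caH1047R none of the 10 and 11.5% (2030). On the measured levels, Ddit3, Ppp1r15a, Hspa5 and Herpud1 were higher on all 4 tumour arrays than on the control array, which held for 30.2% of all genes, and Dnajb9 was lower on all 4, which held for 24.4%. Atf4, Trib3, Chac1, Asns and Xbp1 lay on both sides of the control. The median difference over the 10 genes was 0.11 on the log2 scale and 0.06 over all genes tested.

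**Figure D1:**
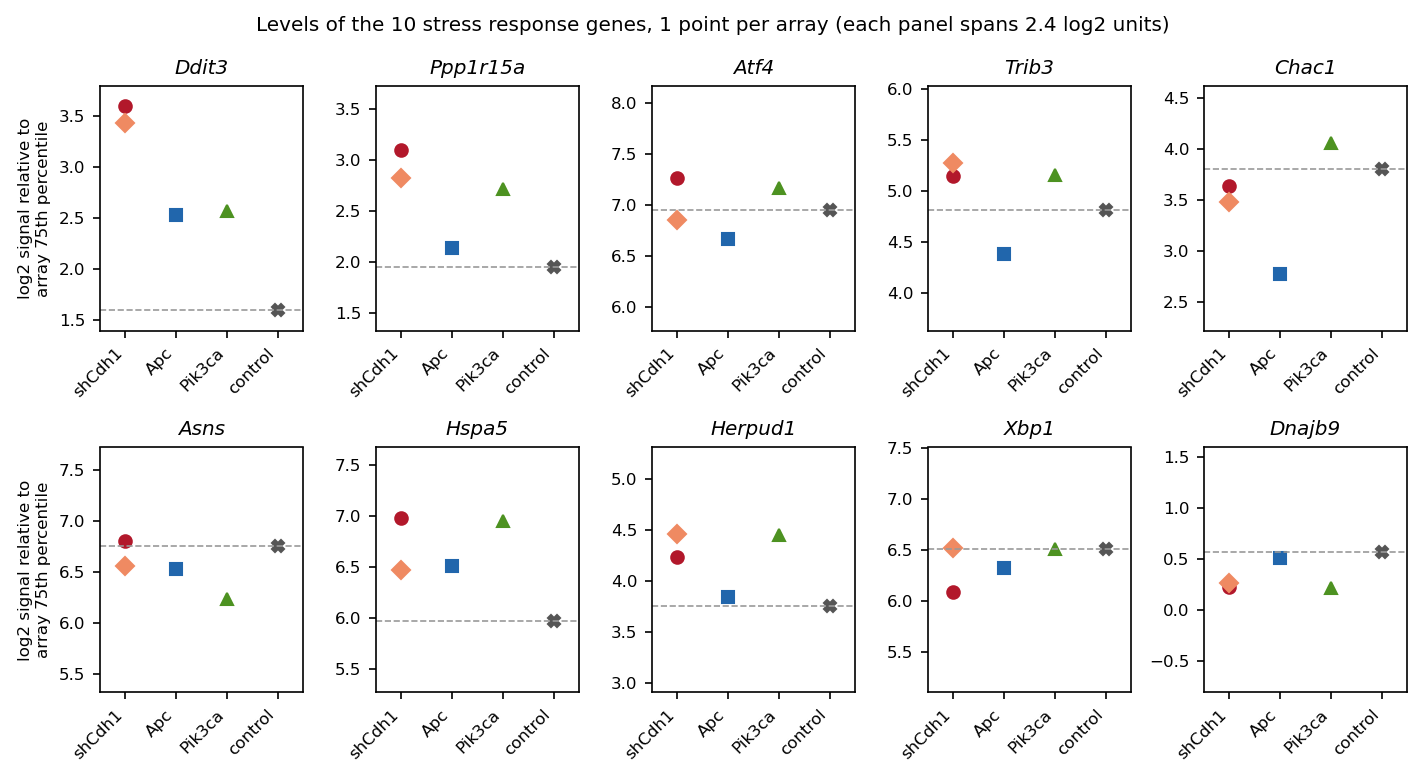
Levels of the 10 genes (vertical axes, log2 signal relative to the array's 75th percentile), with 1 point per array, both hairpins in the shCdh1 column (circle hairpin 1, diamond hairpin 2) and a dashed line at the control. For Ddit3 the shCdh1 tumours at 3.59 and 3.43 stand over Apc580D at 2.53 and Pik3caH1047R at 2.57, and all of them over the control at 1.59. The shCdh1 tumours lay on another slide than Apc580D and Pik3caH1047R.

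The terminal effectors of the PERK branch are Ddit3, which encodes CHOP, a transcription factor that promotes cell death under lasting ER stress, and Ppp1r15a, which encodes GADD34, the phosphatase subunit that removes the phosphate from eIF2-alpha. Ddit3 (chr10:127290793-127296291, GRCm38.p6) stood at 3.59 and 3.43 in the shCdh1 tumours, 2.53 in Apc580D and 2.57 in Pik3caH1047R, against 1.59 in the control. The lowest tumour thus lay well over the control, and the hairpins differed by 0.16. The mean tumour level was 3.03 ± 0.56 (SD, n = 4), a 2.70-fold higher signal than in the single control (log2 difference 1.43 ± 0.53 SE, 95% interval 0.08 to 2.79, limma adjusted p = 0.358). Its interval, which is not adjusted for the number of genes, is the only one of the 10 that does not include 0. For shCdh1 alone the signal was 3.78-fold that of the control (log2 difference 1.92 ± 0.28 SE, limma adjusted p = 0.457), against 1.91-fold for Apc580D and 1.96-fold for Pik3caH1047R. The shCdh1 arrays lay on another slide than Apc580D and Pik3caH1047R, so genotype and slide cannot be told apart between them. Ppp1r15a (chr7:45522917-45526268) stood at 3.09 and 2.82 in the shCdh1 tumours, 2.13 in Apc580D and 2.71 in Pik3caH1047R, against 1.95 in the control. All tumours lay over the control, with Apc580D only 0.18 over it. The tumour mean was 2.69 ± 0.40 (SD, n = 4), 1.67-fold the control signal (log2 difference 0.74, 95% interval -0.30 to 1.78, limma adjusted p = 0.496), and the shCdh1 mean was 2.01-fold (limma adjusted p = 0.512).

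The promoters of these leading genes are shown because stress-activated factors bind such regions, each from 250 bases before to 50 bases after the transcription start as RefSeq gives it on GRCm38.p6. Each was searched on both strands for the ATF4 element core TGATGNAA, for the ER stress element (CCAAT and CCACG, 9 bases apart), for its second form (ATTGG and CCACG, 1 base apart) and for the XBP1 element TGACGTGG. Of 32851 promoters of 300 bases, 3.97% held the first, 0.119% the second, 0.0365% the third and 0.676% the last. None of the 4 patterns occurs in the windows of Ddit3 (chr10:127290543-127290842, plus strand) and Ppp1r15a (chr7:45526219-45526518, minus strand), which says only that these letters are not there.
Ddit3: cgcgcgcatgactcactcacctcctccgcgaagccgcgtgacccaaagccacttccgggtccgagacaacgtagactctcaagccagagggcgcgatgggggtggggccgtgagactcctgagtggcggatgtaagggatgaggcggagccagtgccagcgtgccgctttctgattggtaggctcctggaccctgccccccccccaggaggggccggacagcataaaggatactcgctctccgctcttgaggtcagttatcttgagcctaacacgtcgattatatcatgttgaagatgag
Ppp1r15a: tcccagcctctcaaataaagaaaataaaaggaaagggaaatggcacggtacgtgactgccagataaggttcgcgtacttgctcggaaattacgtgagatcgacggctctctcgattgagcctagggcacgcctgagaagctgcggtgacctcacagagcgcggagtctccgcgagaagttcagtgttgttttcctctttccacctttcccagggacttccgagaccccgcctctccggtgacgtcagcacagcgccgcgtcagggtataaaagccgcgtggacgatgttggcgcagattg

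**Figure D2:**
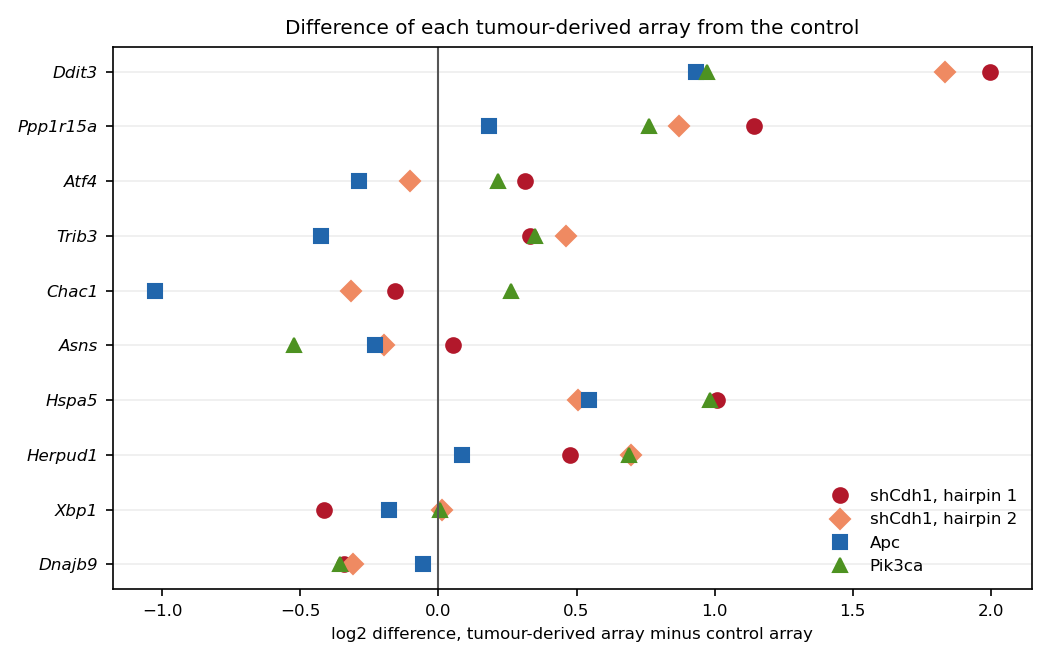
Difference of each tumour array from the control array (horizontal axis, log2) for the 10 genes, with 1 symbol per tumour array. All 4 symbols lie over 0 for Ddit3, Ppp1r15a, Hspa5 and Herpud1 and under 0 for Dnajb9, and Apc580D is the leftmost for 6 of the 10 genes.

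Atf4 encodes the factor that the PERK branch acts through, mainly by its translation, and Trib3, Chac1 and Asns are known targets of it. Atf4 (chr15:80255184-80257545) stood at 7.27 and 6.86 in the shCdh1 tumours, 6.67 in Apc580D and 7.17 in Pik3caH1047R, against 6.96 in the control. The groups overlapped, and the tumour mean of 6.99 ± 0.28 (SD, n = 4) differed from the control by 0.03 (95% interval -0.77 to 0.84, limma adjusted p = 0.975), a difference whose sign turned to -0.01 with quantile normalization. Trib3 (chr2:152337425-152344060), a pseudokinase that restrains ATF4 and AKT signalling, stood at 5.14 and 5.27 in the shCdh1 tumours, 4.38 in Apc580D and 5.16 in Pik3caH1047R, against 4.81 in the control. Apc580D was the one tumour under the control (tumour mean difference 0.18, 95% interval -0.86 to 1.22, limma adjusted p = 0.880). Chac1 (chr2:119351242-119354326), an enzyme that degrades glutathione, stood at 3.64 and 3.48 in the shCdh1 tumours, 2.77 in Apc580D and 4.06 in Pik3caH1047R, against 3.80 in the control. Apc580D was 2.04-fold lower than the control for Chac1 (log2 difference -1.03, limma adjusted p = 0.556), while Pik3caH1047R was 0.26 higher. Asns (chr6:7675165-7693209), asparagine synthetase, stood at 6.81 and 6.56 in the shCdh1 tumours, 6.52 in Apc580D and 6.23 in Pik3caH1047R, against 6.75 in the control. Here 3 tumours lay under the control and shCdh1 #1 just over it (tumour mean difference -0.22, 95% interval -0.95 to 0.50, limma adjusted p = 0.771).

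The ATF4 element core TGATGNAA, or its reverse complement, was found in the promoter windows of 4 members, Chac1, Asns, Herpud1 and Trib3. In Trib3 it lies from 15 to 22 bases after the start. The stretches around the matches of Chac1 (chr2:119351023-119351082, plus strand, match 193 to 186 bases before the start) and Asns (chr6:7693199-7693258, minus strand, match 23 to 16 bases before it) are shown with the match in capitals. The genes whose promoters hold this core lay on both sides of the control in the tumours, with mean differences of -0.31 for Chac1, -0.22 for Asns, 0.18 for Trib3 and 0.49 for Herpud1.
Chac1: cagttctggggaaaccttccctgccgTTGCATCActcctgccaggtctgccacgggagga
Asns: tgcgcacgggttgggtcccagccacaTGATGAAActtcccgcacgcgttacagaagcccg

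Hspa5 and Herpud1 encode ER-resident products, as does Dnajb9, which is given with Xbp1 below. Hspa5 encodes the chaperone BiP that also holds the sensors inactive. Herpud1 encodes a membrane protein of the machinery that degrades misfolded ER proteins. Hspa5 (chr2:34772090-34776529) stood at 6.97 and 6.47 in the shCdh1 tumours, 6.51 in Apc580D and 6.95 in Pik3caH1047R, against 5.96 in the control. The 4 tumours did not overlap the control, and those with the highest signals were shCdh1 #1, 2.01-fold the control, and Pik3caH1047R, 1.98-fold. The hairpins were 0.50 apart, the widest gap among the 10 genes. The tumour mean of 6.72 ± 0.27 (SD, n = 4) was 1.69-fold the control signal (log2 difference 0.76 ± 0.31 SE, 95% interval -0.03 to 1.55, limma adjusted p = 0.385). Herpud1 (chr8:94386429-94395371) stood at 4.23 and 4.45 in the shCdh1 tumours, 3.84 in Apc580D and 4.45 in Pik3caH1047R, against 3.76 in the control. Apc580D was within 0.08 of the control, and the tumour mean of 4.24 ± 0.29 (SD, n = 4) was 1.40-fold the control signal (95% interval of the log2 difference -0.33 to 1.31, limma adjusted p = 0.565).

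Of the members, Hspa5 and Herpud1 held an exact match to an ER stress element in the window searched. This pattern is known to be bound by ATF6 and XBP1 with NF-Y. In Hspa5 (chr2:34771840-34772139, plus strand) it lies 65 to 47 bases before the start. In Herpud1 (chr8:94386179-94386478, plus strand) the second form lies 52 to 42 bases before the start, and an ATF4 element core in reverse complement lies 112 to 105 bases before it. The windows of Atf4, Xbp1 and Dnajb9 held none of the patterns searched, which says only that those letters are not there. Matches are in capitals and are a description of the letters, not a measured binding site.
Hspa5: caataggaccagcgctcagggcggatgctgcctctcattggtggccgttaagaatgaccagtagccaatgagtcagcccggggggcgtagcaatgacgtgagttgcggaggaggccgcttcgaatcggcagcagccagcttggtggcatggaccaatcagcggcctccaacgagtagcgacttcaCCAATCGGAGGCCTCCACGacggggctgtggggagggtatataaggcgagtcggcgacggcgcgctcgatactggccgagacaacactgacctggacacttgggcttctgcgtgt
Herpud1: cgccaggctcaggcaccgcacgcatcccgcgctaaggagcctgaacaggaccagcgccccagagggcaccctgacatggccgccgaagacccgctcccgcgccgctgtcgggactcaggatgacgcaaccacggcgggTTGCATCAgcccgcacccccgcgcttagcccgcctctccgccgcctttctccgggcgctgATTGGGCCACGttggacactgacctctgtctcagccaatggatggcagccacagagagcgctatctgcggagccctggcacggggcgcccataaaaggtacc

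Xbp1 encodes the factor that IRE1 activates by splicing and that is itself needed for the ER of secretory cells, and Dnajb9 encodes ERdj4, a co-chaperone of BiP and a known XBP1 target. Xbp1 (chr11:5520641-5525993) stood at 6.09 and 6.52 in the shCdh1 tumours, 6.33 in Apc580D and 6.52 in Pik3caH1047R, against 6.51 in the control. The control sat within the range of the tumours, whose mean was 6.37 ± 0.20 (SD, n = 4; log2 difference -0.14, 95% interval -0.82 to 0.53, limma adjusted p = 0.847). Where these probes lie relative to the Xbp1 splice site was not determined, and the spliced form was not tested. Dnajb9 (chr12:44205897-44210068) stood at 0.23 and 0.26 in the shCdh1 tumours, 0.51 in Apc580D and 0.21 in Pik3caH1047R, against 0.57 in the control. Apc580D stood near the control and the other tumours lay together under it (tumour mean difference -0.27, 95% interval -0.86 to 0.32, limma adjusted p = 0.662).

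Between the tumour genotypes the 10 genes did not share a direction. Relative to the control array, the number of the 10 genes that were higher was 7 in shCdh1 #1 (56.2% of all genes), 6 in shCdh1 #2 (also 56.2%), 4 in Apc580D (49.3%) and 8 in Pik3caH1047R (54.3%). The median difference over the members was 0.25 for shCdh1, -0.12 for Apc580D and 0.31 for Pik3caH1047R, against 0.09, -0.01 and 0.06 over all genes. A signal at least 2-fold higher was found in shCdh1 for Ddit3 and Ppp1r15a (2 of 10, background 8.95%), in Apc580D for none (background 11.3%), in Pik3caH1047R for none (background 12.1%) and in the tumour mean for Ddit3 (1 of 10, background 9.88%). Apc580D had the lowest level of the 4 tumours for 6 of the 10 genes, Ddit3, Ppp1r15a, Atf4, Trib3, Chac1 and Herpud1, a position it held for 31.3% of all genes. Its distance under the next tumour was 0.76 for Trib3, 0.71 for Chac1, 0.58 for Ppp1r15a, 0.39 for Herpud1, 0.19 for Atf4 and 0.04 for Ddit3, so for Ddit3 it was level with Pik3caH1047R. By Dixon's test among the 4 tumours, 1 array stood apart for 2 of the 10 genes, Trib3 and Dnajb9, and for 5.85% of all genes. With 1 Apc580D array these distances have no replicate error. Apc580D and Pik3caH1047R share a slide, and the shCdh1 tumours share the other with the control. Genotype and slide thus cannot be told apart where shCdh1 is set against Apc580D or Pik3caH1047R.

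In all, 6 members were read by more than 1 probe, so that the direction could be checked within the same RNA. The 3 probes of Hspa5 gave tumour mean differences of 0.76, 0.80 and 0.80, with all 4 tumours over the control on each, and the 2 of Herpud1 gave 0.49 and 0.57, again with all 4 over it. The 3 probes of Xbp1 gave -0.14, -0.39 and -0.33. On the dimmer pair all 4 tumours lay under the control, at -0.55 to -0.25 and -0.45 to -0.12, whereas 2 of 4 did so on the brightest. The second Asns probe had all 4 tumours under the control (mean difference -0.39) against 3 of 4 on the first (-0.22). Both Atf4 probes had 2 of 4 tumours over the control, with means of 0.03 and -0.06. The Dnajb9 probes disagreed, with no tumour over the control on the brighter (-0.27) and 2 of 4 over it on the other (0.07). Ddit3, Ppp1r15a, Trib3 and Chac1 rest on 1 probe each.

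**Figure D3:**
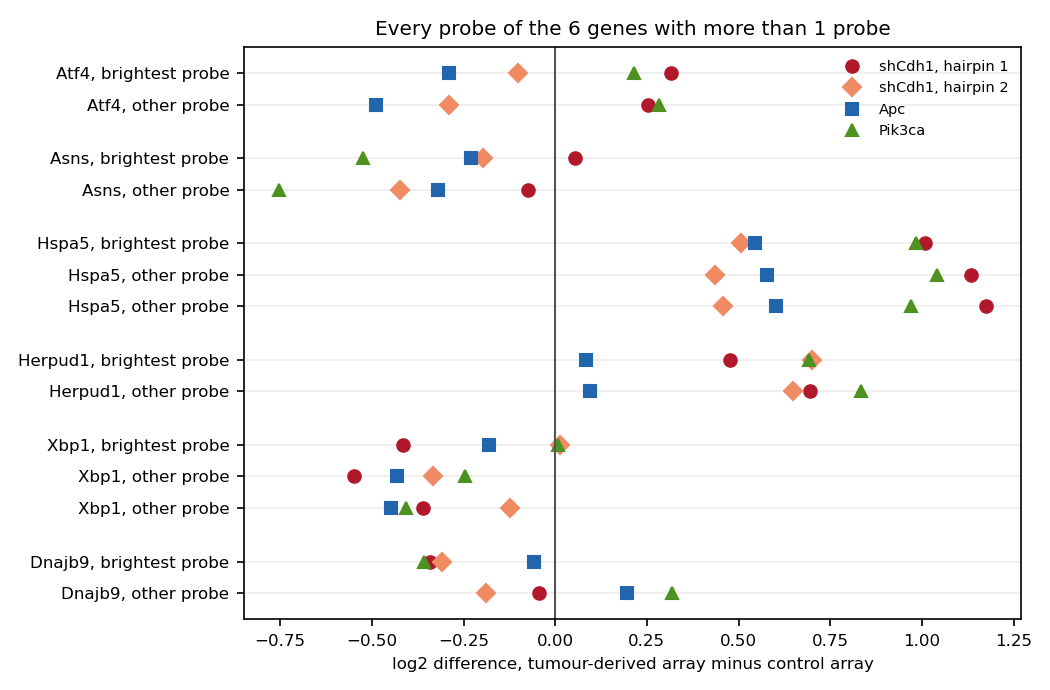
Difference of each tumour array from the control array (log2) for every probe of the 6 members with more than 1 probe. The probes of Hspa5 and Herpud1 have all tumours over 0, and those of Xbp1, Asns and Dnajb9 differ among themselves in how many tumours lie over it.

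Around these members 88 other genes of the same pathways were read in 5 lists, all well above background on all arrays, and none passed the limma test in the tumours in either direction (8 of 88 at an unadjusted p under 0.05, background 13.3%). In these lists 50 genes were higher in the tumour mean and 38 lower (56.8% higher, against 55.4% of all genes tested), with a median difference of 0.08, against 0.06 over all genes. All 4 tumours were over the control for 27 of the 88 genes (background 30.2%) and under it for 15 (background 24.4%), so these counts do not set the lists apart. Of the 17 kinases and factors of the PERK-ATF4 arm, 11 were higher and 6 lower. The sensor Eif2ak3 (PERK) differed by 0.11 and the amino acid sensor Eif2ak4 (GCN2) by -0.29. Ddit4, an inhibitor of the growth kinase mTORC1, stood at 8.003 and 7.85 in the shCdh1 tumours, 7.14 in Apc580D and 7.94 in Pik3caH1047R, against 6.68 in the control (difference 1.06, 95% interval 0.03 to 2.08, limma adjusted p = 0.366). Its tumours all lay over the control, with Apc580D lowest. Apc580D was the lowest tumour for 33 of the 88 list genes (background 31.3%). Sesn2, a leucine sensor that is also a known p53 target, stood at 1.37 and 1.28 in the shCdh1 tumours, 0.99 in Apc580D and 1.51 in Pik3caH1047R, against 2.33 in the control (difference -1.04, limma adjusted p = 0.275). The part of the low Trp53 signal in this was not tested. Atf3, a stress-induced factor, differed by 0.72 and Ero1a, the oxidase that forms disulfides in the ER, by 0.60.

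The ATF6 and ER chaperone list held 17 genes, 10 higher and 7 lower (median difference 0.11). Hsp90b1, the ER chaperone GRP94, stood at 6.66 and 6.62 in the shCdh1 tumours, 6.46 in Apc580D and 6.74 in Pik3caH1047R, against 5.90 in the control (difference 0.72, 95% interval 0.16 to 1.29, limma adjusted p = 0.303). As for Hspa5, no tumour overlapped the control. The sensor Atf6 stood at 2.21 and 2.08 in the shCdh1 tumours, 1.90 in Apc580D and 1.56 in Pik3caH1047R, against 1.097 in the control (limma adjusted p = 0.364), and the chaperone Hyou1 differed by 0.52. Mbtps1, a protease that cuts ATF6, differed by -0.42. The IRE1-XBP1 and degradation list of 20 genes had 8 higher and 12 lower in the tumour mean (median difference -0.05, against 0.06 over all genes). By genotype it had 7 higher and 13 lower in shCdh1 (56.6% of all genes higher) and the same counts in Apc580D (49.3%). In Pik3caH1047R 15 were higher and 5 lower (54.3% of all genes higher). There the ATF6 list had 13 of 17 higher and the PERK-ATF4 list 12 of 17. The amino acid list had 11 of 20 and the aminoacyl-tRNA synthetase list 7 of 14. Of all 88 genes, 58 were higher in Pik3caH1047R, 50 in shCdh1 and 43 in Apc580D. These differences were not tested. Ern2, the IRE1 form of mucus-secreting gut epithelium, stood at 3.66 and 2.53 in the shCdh1 tumours, 3.47 in Apc580D and 3.63 in Pik3caH1047R, against 5.19 in the control (difference -1.87, limma adjusted p = 0.280), while Ern1, the widely expressed form, differed by 0.40. Sel1l and Os9, which serve the degradation of ER proteins, differed by -0.62 and -0.58, and Derl3 by 1.097 with tumours on both sides of the control. The chief cell marker sum was 3.99 to 17.0 in the tumours, against 85.0 in the control. The sum of 4 mucous neck markers was 46.9 to 95.4, against 100 in the control, a sum led by Aqp5 (5.05 to 6.32, against 6.40). In Apc580D and Pik3caH1047R that sum, 95.2 and 95.4, was near the control. Its markers did not share a direction. Aqp5 and Tff2 were lower in every tumour, Cd44 was higher in every tumour (2.57 to 3.79, against 2.35) and Muc6 lay on both sides of the control. The chief cell sum was lower in every tumour, as Ern2 was. Among the tumours the chief cell sum was highest in shCdh1 #2 (17.0), where Ern2 was lowest (2.53). The part of these cell types in the result was not tested.

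**Figure D4:**
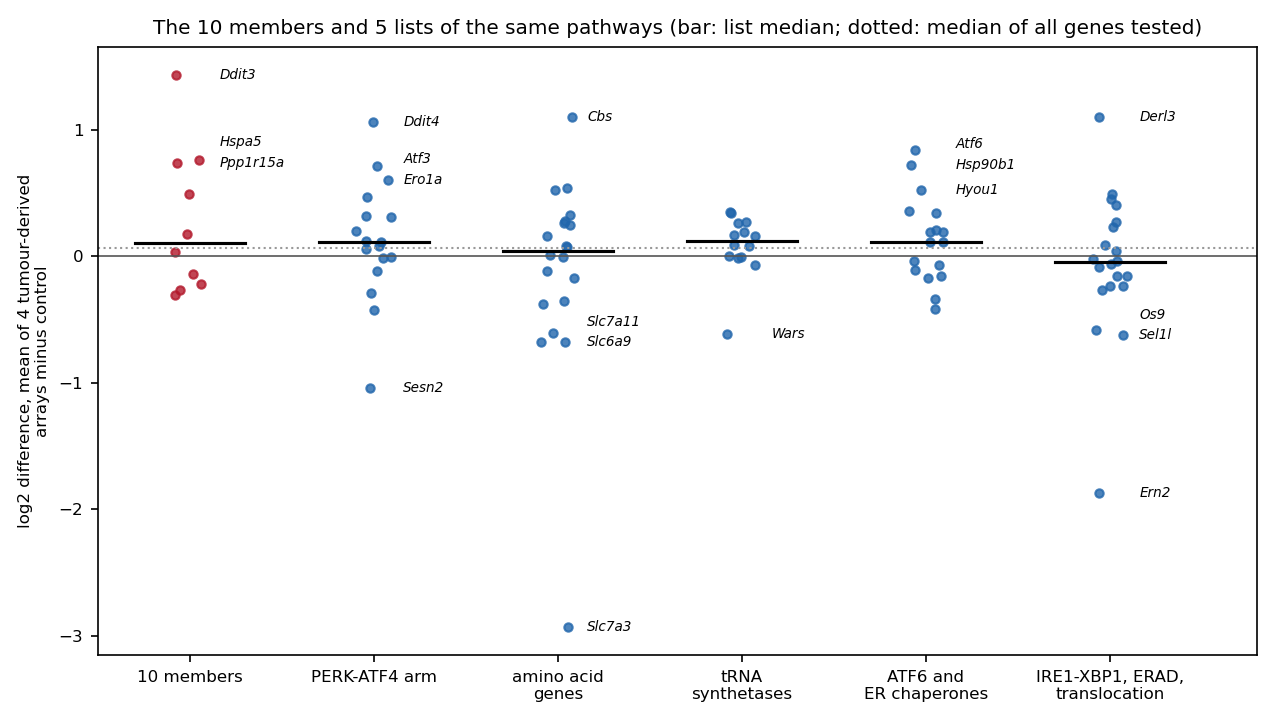
Difference of the mean of the 4 tumour arrays from the control array (vertical axis, log2) for the 10 members and each gene of the 5 pathway lists, with a bar at each median and a dotted line at the median of all genes tested, 0.06. The medians of the 5 lists run from -0.05 in the IRE1-XBP1 list to 0.12 in the aminoacyl-tRNA synthetase list.

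The amino acid list of 20 transporters and enzymes had 11 higher and 9 lower (median difference 0.04). Slc7a3, a transporter of cationic amino acids, stood at -3.94 and -2.14 in the shCdh1 tumours, -2.40 in Apc580D and -3.19 in Pik3caH1047R, against 0.02 in the control (difference -2.93, 95% interval -4.84 to -1.03, limma adjusted p = 0.266). The cystine transporter Slc7a11 and the glycine transporter Slc6a9 both differed by -0.68. Cbs, which makes cystathionine, differed by 1.099 (limma adjusted p = 0.400). Of the 14 aminoacyl-tRNA synthetases, which charge tRNA and include known ATF4 targets, 10 were higher and 4 lower in the tumour mean (background 55.4% higher, median difference 0.12, none at an unadjusted p under 0.05), and in Pik3caH1047R 7 were higher and 7 lower. Aars, Cars and Gars, the enzymes for alanine, cysteine and glycine, differed by 0.34, 0.35 and 0.27, and Wars, the one for tryptophan, by -0.61.

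**Figure D5:**
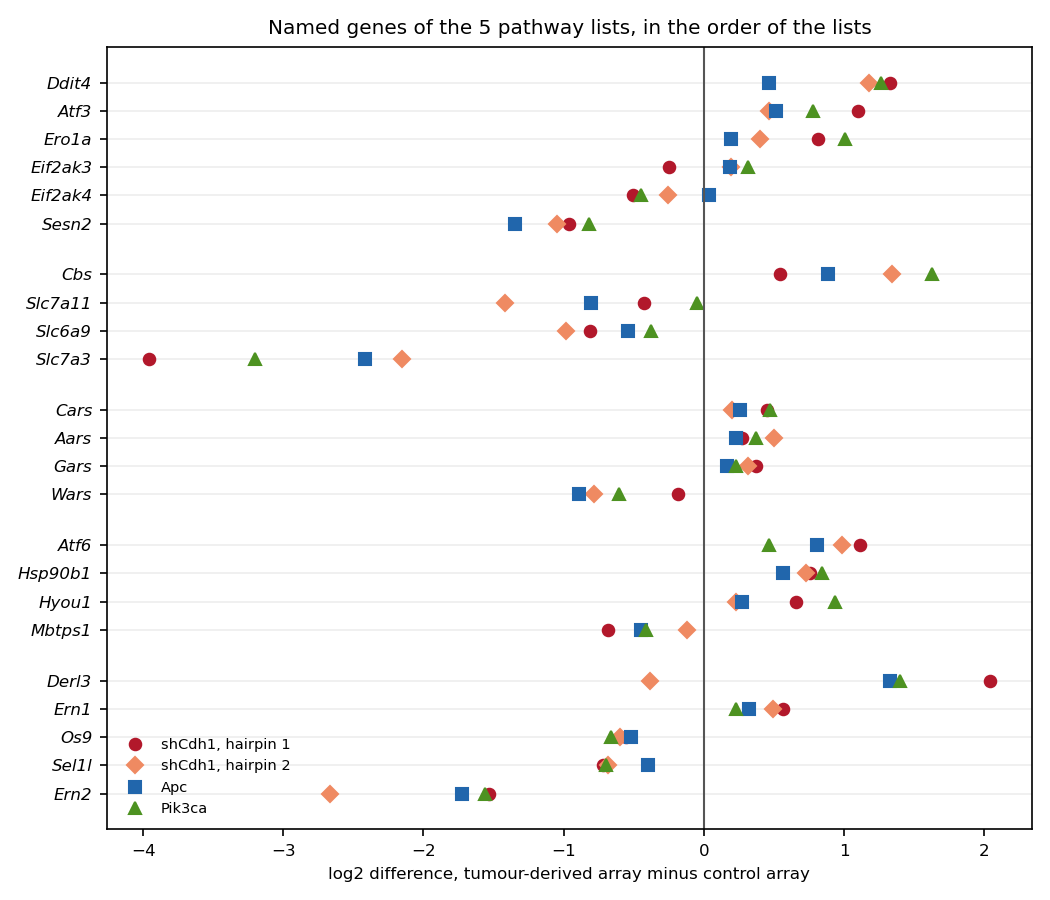
Difference of each tumour array from the control array (horizontal axis, log2) for the named genes of the 5 lists, with 1 symbol per tumour array. Ddit4, Atf6 and Hsp90b1 have all 4 tumours over 0, Sesn2, Ern2 and Slc7a3 have all 4 under it, and Derl3 has tumours on both sides.

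The genes whose levels followed those of a member most closely over the 5 arrays were found among 14574 genes well above background, by the root mean square difference of levels after centring each gene. This was done for the 3 members with the widest range. For Ddit3 (range 2.00) they were Dusp5, a phosphatase of ERK, at 0.096, 9430021M05Rik at 0.211 and Ftx at 0.240. For Chac1 (range 1.29) they were Mgat3 at 0.085, Tc2n at 0.096 and Gys1 at 0.104, and for Ppp1r15a (range 1.14) Crybb2 at 0.058, Cela2a at 0.062 and 4930518P08Rik at 0.064. Dusp5 stood at -2.98 and -3.002 in the shCdh1 tumours, -3.91 in Apc580D and -3.73 in Pik3caH1047R, against -4.73 in the control. It was picked for its closeness to Ddit3 on these same arrays, so a shared order of arrays is no separate result. Whether any of these matches is closer than expected among 14574 genes over 5 arrays was not tested.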

How the data were processed

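The deposited scanner files of 5 1-colour Agilent arrays hold background-subtracted processed signal intensity per spot, written by Feature Extraction 11.0.1.1, per the file headers. The authors' deposited value table holds log2 values of unknown per-probe baseline. Differences between its columns followed the scanner values with a slope of 1 over 53335 probes, and its column medians were 0.074 and 0.031 for shCdh1 #1 and #2, -0.080 for Apc580D, 0.022 for Pik3caH1047R and -0.057 for the control.

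Levels were log2 processed signal minus each array's 75th percentile, without control spots and outlier spots. Of 56605 probes, 34549 were named by matching unversioned accessions to RefSeq (GRCm38.p6), and the probe with the highest mean stood for its gene. Genes were tested where a probe was well above background on at least 1 array (17583 genes). The package limma (version 3.58.1, run in R 4.3.3, with eBayes moderation) compared the 4 tumours with the control and, in a fit of group means whose spread comes from the shCdh1 pair alone, each genotype with the control, and p-values were adjusted by Benjamini-Hochberg across those genes. Both fits assume that single arrays vary like the others. The fit was tested on simulated data in which all arrays of a gene, the control included, varied alike, so that assumption was not tested. The number of arrays limits the precision. Tumour organoids beyond these 4, which the design text counts, were not analysed here.

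The members and lists were chosen with earlier results of these data known. Named beside the members were the sensors Ern1, Eif2ak3, Atf6 and Eif2ak4, and from each of the 5 lists every gene that passed (none did) and the 4 with the largest absolute difference between tumours and control. The alternatives tried were normexp background correction (on median signals, since the files hold no mean signals), quantile normalization, a floor for dim probes, no or a stricter filter, the mean of all probes, the value table, the slide as a block, equal weights for the 3 genotypes and leaving out each tumour array.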

Additional observations from a re-analysis of the deposited data

Results flagged for a closer look

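Among the 4 tumour arrays, the Trib3 level of Apc580D (4.38) lay apart, its gap to the nearest tumour (5.14) making up 0.855 of the whole range, whose other end was 5.27. This is above Dixon's critical value for 4 samples, which chance passes in about 1 in 20 groups. All 10 members were searched and 2 passed, against 5.85% of all genes tested, and the 4 arrays hold 3 genotypes with 1 Apc580D array. The same gap for Dnajb9 was 0.842, with Apc580D at 0.51, the nearest tumour at 0.26 and the other end at 0.21. On the second Dnajb9 probe Apc580D, at -2.57, was not the highest tumour, since Pik3caH1047R stood at -2.45.

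Relative to the control, Trib3 was lower in Apc580D (-0.43) and higher with both Cdh1 hairpins (0.33 and 0.46), a difference of -0.82 between Apc580D and the shCdh1 mean. Chac1 was higher than the control in Pik3caH1047R (0.26) and lower with both hairpins (-0.16 and -0.32), a difference of 0.50. Neither difference was tested, and each rests on 1 array of Apc580D or Pik3caH1047R.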

How the results depend on the processing

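No member passed the limma test under any alternative that gave one. With a hairpin left out, shCdh1 has no residual degrees of freedom and no test. The block, equal weights and left-out tumours apply to the tumour comparison. Ddit3, Ppp1r15a, Hspa5 and Herpud1 were higher in the tumour mean under all 13 alternatives run for it. For the tumours, without the slide block, Ddit3 ranged from 1.25 to 1.60 (adjusted p 0.256 to 0.477), Hspa5 from 0.68 to 0.85 (0.287 to 0.549), Ppp1r15a from 0.61 to 0.93 (0.341 to 0.638) and Herpud1 from 0.42 to 0.62 (0.395 to 0.706). Of the members' values under the alternatives, 347 kept their direction and 13 turned, and the cause was not tested. For the tumours these were Atf4 at -0.0107 with quantile normalization, -0.0130 with the mean of its probes, -0.0589 without shCdh1 #1 and -0.0256 without Pik3caH1047R. For shCdh1 they were Atf4 at -0.00202 with quantile normalization and -0.102 without hairpin 1, Xbp1 at 0.0127 without hairpin 1 (-0.416 without hairpin 2) and Asns at 0.0542 without hairpin 2 (-0.197 without hairpin 1). For Apc580D they were Xbp1 at 0.0202 with quantile normalization and Dnajb9 at 0.0689 with the mean of its probes. For Pik3caH1047R they were Xbp1 at -0.13 with quantile normalization, -0.21 with the mean of its probes and -0.0161 in the value table.

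The number of all genes passing for the tumours was 21, and 48 with normexp (9 higher, 39 lower), 5 with a floor (4 higher, 1 lower), 7 when dim genes on any array were dropped (4 higher, 3 lower), 0 with the slide as a block (1821 at an unadjusted p under 0.05) and 0 with equal weights for the 3 genotypes (2227 unadjusted). Leaving out a tumour array gave 0 to 19: 0 without shCdh1 #1 (2218 unadjusted), shCdh1 #2 (2032) or Pik3caH1047R (1852), and 19 without Apc580D. Each of these fits had 1 tumour array fewer, the one that gave 19 included, so less spread was known in all of them. The cause of the difference in counts was not tested. The median over the members for the tumours, 0.11, was 0.04 to 0.26 with an array left out, highest without Apc580D and lowest without shCdh1 #1, and 0.05 with quantile normalization and 0.06 with equal weights. With the slide as a block it was 0.25, which is the shCdh1 value, since the control shares a slide with the shCdh1 tumours alone. For shCdh1 the median of 0.25 was 0.15 with quantile normalization and 0.24 to 0.32 with a hairpin left out. For Apc580D the median of -0.12 was -0.0491 with normexp and -0.00859 with quantile normalization, and for Pik3caH1047R the median of 0.31 was 0.14 with quantile normalization. Quantile normalization moved the median of all genes by under 0.1.

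No paired analysis was possible, because there was 1 control array and the sample labels pair no tumour with it. The numbers of the shCdh1 organoids name hairpins. The members were well above background on all arrays, so signal did not limit their values. The single control did: its own spread is unknown.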
